A study of Mus musculus with 8 samples.

Results

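Collagens are the rod-shaped proteins of the extracellular matrix, and the mouse makes each collagen chain from its own gene. The genes described here are the 44 of the 55401 genes in the table whose symbol has the form of a collagen alpha chain, such as *Col1a1*, and each was placed by its known structure in 1 of 4 groups. There were 11 fibrillar chains, 6 basement membrane chains, 9 fibril-associated chains with interrupted triple helices (FACIT) and 18 other chains. The rule reads only the symbols. RNA was measured by bulk RNA-seq of the tibialis anterior (TA), a fast muscle of the lower leg. All mice were male, 6 mo old and of the C57/Bl6 background. The 4 WT mice were wild type, and the 4 *mdx5cv* mice carried a mutation in *Dmd*, the gene of dystrophin, and are a mouse model of Duchenne muscular dystrophy (DMD). The muscle was taken whole, so it held connective tissue, vessels, nerve and tendon ends beside the fibers. No label beyond the separate titles ties each library to its own mouse, so p-values measure the spread between these libraries.

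A collagen molecule is a helix of 3 chains wound around each other, and the repeat Gly-X-Y in each chain is what lets the helix close. Fibrillar collagens pack into the banded fibrils that carry tension, FACIT collagens sit on the surface of those fibrils, and the type IV chains form the sheet-like network of the basement membrane around each muscle fiber and vessel. The muscle fibers themselves make little of this matrix, and fibroblasts of the endomysium and perimysium are its best known source in skeletal muscle. In DMD, fibers are lost and replaced over time by collagen-rich scar, which is called fibrosis.

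Collagen transcripts took a larger part of the reads in *mdx5cv* muscle, and most chains that could be tested were higher there. The 44 genes together held 0.0580 to 0.0925% of the reads in WT muscles, with a mean of 0.0729% ± 0.0153 (SD, n = 4). In *mdx5cv* muscles they held 0.256 to 0.588%, with a mean of 0.396% ± 0.139 (SD, n = 4), which is 5.43 times the WT mean, and the groups did not overlap. The authors deposited normalized counts, which are reads scaled by a sample-specific size factor, and 36 of the 44 genes had a mean of at least 10 normalized counts and were tested. With limma on log2(normalized count + 1), 20 of these 36 genes rose and 3 fell by at least 2-fold with an adjusted p below 0.05. Of all 13677 genes tested, 10.3% passed as higher and 3.27% as lower by the same rule. Without a minimum fold change, 25 of the 36 were higher and 3 lower, where the shares of all genes were 20.9% and 20.1%. The values of the 2 genotypes did not overlap in 27 of the 36, of which 24 were higher and 3 lower in *mdx5cv*, and 40.1% of all genes tested had no overlap. The median log2 fold change was 1.24 over the collagen genes tested and 0.00 over all genes tested. Of the 20 called higher, *Col4a6* and *Col6a5* had a WT mean under 10 and passed the filter through their *mdx5cv* values, and *Col9a1*, called lower, had an *mdx5cv* mean under 10. In bulk muscle, more or fewer cells of a type and more or less RNA per cell cannot be told apart.

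**Figure D1:**
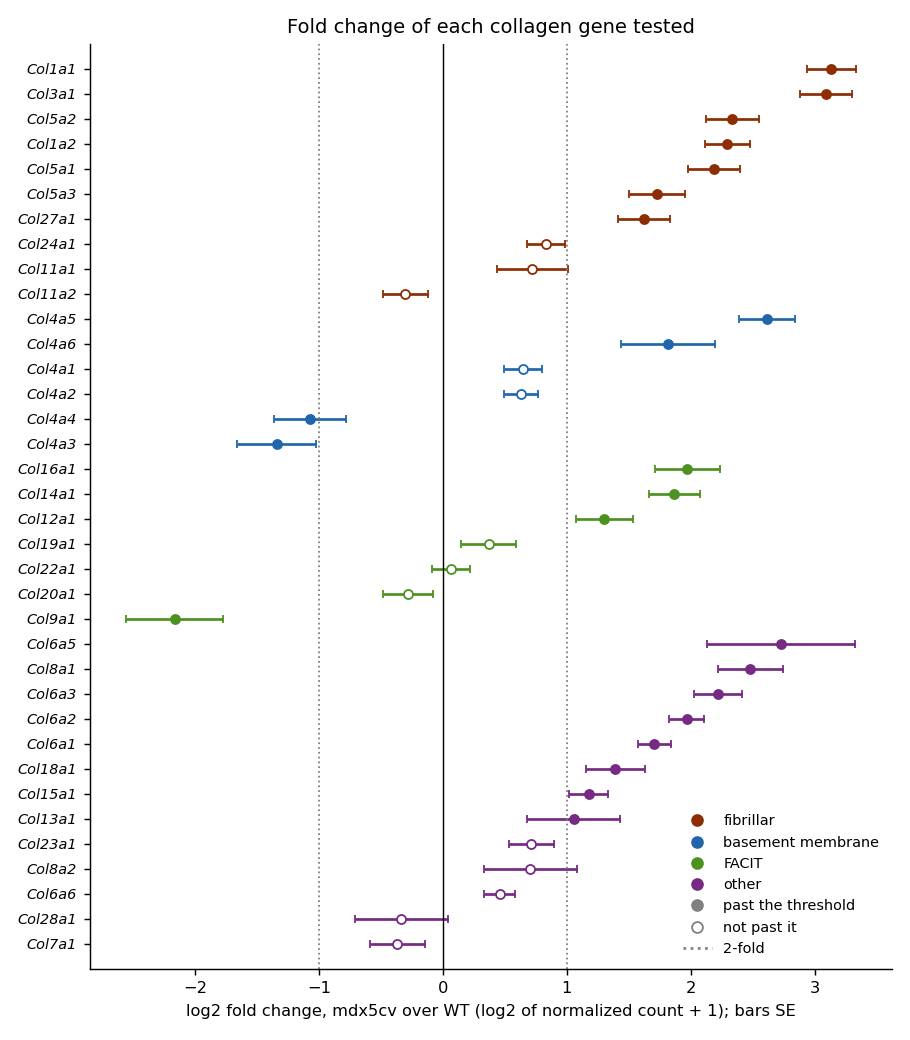
Log2 fold change of each of the 36 collagen genes tested (points) with its SE (bars), *mdx5cv* over WT with 4 muscles each. Colors give the structural group, filled points changed by at least 2-fold with an adjusted p below 0.05, and dotted lines mark 2-fold. The fibrillar chains reach 3.13, and *Col4a3*, *Col4a4* and *Col9a1* are the filled points to the left of 0.

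*Dmd* itself was lower in *mdx5cv*, with 6954 ± 857 normalized counts in WT and 3964 ± 388 in *mdx5cv* (SD, n = 4, log2 fold change -0.81, SE 0.12, adjusted p = 0.000177), and the groups did not overlap. A WT library held 13862559 to 14921057 reads, and an *mdx5cv* library 13175524 to 14502624. Size factors were 0.873 to 0.944 in WT and 1.06 to 1.25 in *mdx5cv*, so the scaling bears on every fold change. When libraries were instead scaled to equal totals, the median over all genes became 0.36 on the log2 scale, and the share of calls that were higher went from 76.0% to 91.5%. Under it 25 collagen genes were called higher and 1 lower. Changes below are relative to the size factors, under which the median of all genes was 0.00. The *mdx5cv* muscle with replicate number 4 had the highest value in 19 of the 20 genes called higher, *Col6a5* being the exception, and the one with number 2 had the lowest value of *mdx5cv* in 15 of them. The same muscle number 4 had the highest summed macrophage markers, 8587 normalized counts against 3540 to 4888 in the other 3, and the highest summed markers of regenerating fibers, 8502 against 2175 to 4814. The part of these markers in the spread of the collagens was not tested. Without that muscle 19 collagen genes were called higher and 1 lower.

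The 3′ untranslated regions (UTRs) of collagen transcripts are known for target sites of the miR-29 family, microRNAs that lower the level of many matrix transcripts. The microRNAs were not measured here, and the sequences are shown because the letters of the site are shared by chains that moved in opposite directions. The mature miR-29 sequences from RefSeq (GRCm38.p6) have 1 seed in common, bases 2 to 8, which is in capitals below.
miR-29a-3p: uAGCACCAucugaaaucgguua
miR-29b-3p: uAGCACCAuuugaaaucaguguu
miR-29c-3p: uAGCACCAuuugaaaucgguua
The reverse complement of the seed, TGGTGCT, was searched on the transcript strand of the 3′ UTR of 1 coding transcript for each gene of GENCODE M21. It was present in 24 of the 42 collagen genes with such a UTR (57.1%) and in 2468 of 20420 coding genes (12.1%). Collagen UTRs held 0.775 matches per kb and all coding genes 0.107. The match was found in 9 of 10 fibrillar, 6 of 6 basement membrane, 3 of 9 FACIT and 6 of 17 other chains. Below are matches from the most raised fibrillar chains, from the most raised basement membrane chain and from 3 chains that fell, with the match in capitals and 28 bases of the transcript strand each.
*Col1a1*, chr11:94952528-94952555, + strand: aaggaatttcTGGTGCTatagaagctga
*Col3a1*, chr1:45348972-45348999, + strand: aatgtctcaaTGGTGCTataataaataa
*Col5a2*, chr1:45374955-45374982, - strand: cttttaatgaTGGTGCTaaaattatttc
*Col4a5*, chrX:141688243-141688270, + strand: ctcccaccaaTGGTGCTaatatcctcta
*Col4a3*, chr1:82720626-82720653, + strand: gtggacgtgaTGGTGCTgatacttaagt
*Col4a4*, chr1:82453025-82453052, - strand: gcaaattcagTGGTGCTctctccagact
*Col9a1*, chr1:24252001-24252028, + strand: ttagagcaacTGGTGCTattcagtaagt
Of the 22 tested collagen genes with a match, 13 were called higher and 3 lower, with a median log2 fold change of 1.68. Of the 12 tested without a match, 6 were called higher and 0 lower, with a median of 0.89, and the difference was not tested. Among all other genes tested, the median was 0.04 for the 1713 with a match and -0.01 for the 10175 without. A match is a run of letters and not a measured site, and *Col1a2* and *Col6a1* had none in the UTRs read.

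**Figure D2:**
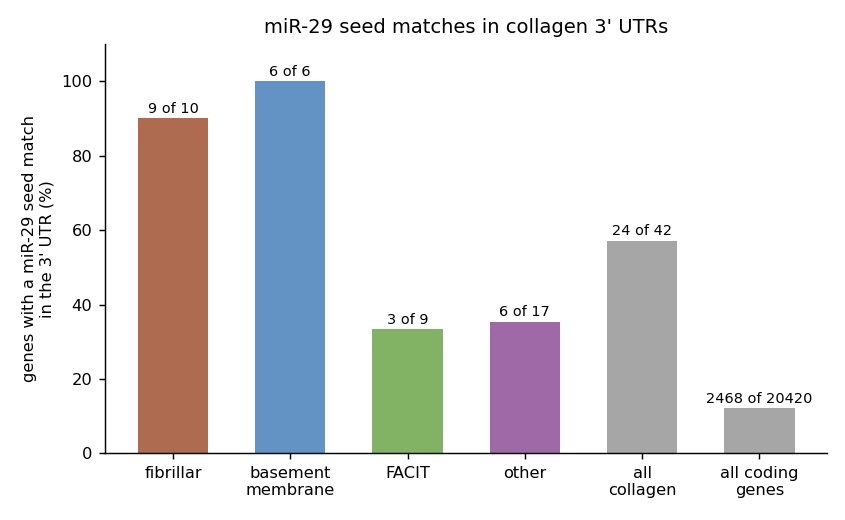
Share of genes (%) whose 3′ UTR holds a match to the miR-29 seed, for the 4 structural groups, all 42 collagen genes with a UTR and all 20420 coding genes. The numbers over the bars are genes with a match of genes read, and the share is 57.1% for collagen genes and 12.1% for all coding genes.

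The fibrillar chains had the highest median log2 fold change of the 4 groups, 1.96, against 0.64 in basement membrane, 0.37 in FACIT and 1.17 in other chains. Of the 11, 10 were tested, 7 were called higher and 0 lower. *Col1a1* and *Col1a2* encode the 2 kinds of chain of type I collagen, the main fibril protein of scar, tendon and bone. Gene coordinates come from GENCODE M21 (GRCm38, the mm10 build of the files). *Col1a1* (chr11:94936224-94953042, + strand) had 649.8, 815, 662 and 994 normalized counts in WT replicates 1 to 4 and 6189, 4754, 7036 and 10006 in *mdx5cv* replicates 1 to 4. The lowest *mdx5cv* muscle was well above the highest WT muscle, and this was the largest change among the 36 on the log2(normalized count + 1) scale (log2 fold change 3.13, SE 0.20, adjusted p = 4.69e-07). *Col6a5* was above it in edgeR (log2 fold change 3.22 against 3.16), in DESeq2 (3.28 against 3.16) and with a pseudocount of 0.1 (3.17 against 3.13). The mean of *mdx5cv* over that of WT was also larger for *Col6a5* (9.81 against 8.97). *Col1a2* (chr6:4504814-4541544, + strand) had 1274, 1819, 1173 and 1409.9 in WT and 6733, 5014, 6809 and 9636 in *mdx5cv* (log2 fold change 2.29, SE 0.18, adjusted p = 2.02e-06). *Col3a1* (chr1:45311538-45349706, + strand), the chain of type III collagen, which forms fine fibrils in distensible tissue and early scar, had 1247, 1629, 1084 and 1982 in WT and 11900.0, 8798, 12538 and 17398 in *mdx5cv* (log2 fold change 3.09, SE 0.21, adjusted p = 6.56e-07). No value of these 3 genes overlapped between the genotypes.

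Type V collagen lies inside type I fibrils and limits their diameter. Its chain gene *Col5a1* (chr2:27886425-28039514, + strand) had 333, 516, 391 and 583 normalized counts in WT and 2122, 1382, 2012 and 2891 in *mdx5cv* (log2 fold change 2.19, SE 0.21, adjusted p = 7.02e-06). *Col5a2* (chr1:45374321-45503282, - strand) had 276, 453, 275 and 398 in WT and 1845, 1159, 1657 and 2532 in *mdx5cv* (log2 fold change 2.33, SE 0.22, adjusted p = 5.91e-06), and *Col5a3* (chr9:20770050-20815067, - strand) had 241, 333, 248 and 448 in WT and 1048, 654, 1188 and 1333 in *mdx5cv* (log2 fold change 1.73, SE 0.23, adjusted p = 7.03e-05). In all 3 the *mdx5cv* muscle number 2 was the lowest of its genotype and still above every WT muscle. *Col27a1*, a fibrillar chain known from cartilage, rose from 41.5 ± 11.6 normalized counts in WT to 129 ± 27.8 in *mdx5cv* (SD, n = 4, log2 fold change 1.62, SE 0.21, adjusted p = 6.37e-05). *Col24a1*, a fibrillar chain known from bone, passed the adjusted p but not the fold, with 162 ± 12.2 normalized counts in WT and 293 ± 66.7 in *mdx5cv* (SD, n = 4, log2 fold change 0.83, SE 0.15, adjusted p = 0.000919). *Col11a1* and *Col11a2*, the type XI chains that nucleate fibrils in cartilage, did not pass. *Col11a1* had a log2 fold change of 0.72 (adjusted p = 0.0606). Its adjusted p was 0.0348 with the replicate block, 0.0400 in DESeq2 and 0.0243 without *mdx5cv* replicate 1, where its fold stayed under the minimum, and 0.00679 under equal totals, where it was called higher (1.07). The other type XI chain, *Col11a2*, had -0.30, which turned to 0.05 under equal totals. *Col2a1*, the main chain of cartilage fibrils, had 3.18 to 4.58 normalized counts in WT and 1.80 to 4.72 in *mdx5cv* and was not tested.

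The fibrillar genes resemble each other in structure. The long unbroken helix of a fibrillar collagen is encoded by many small exons, and 305 of their 627 internal coding exons (48.6%) were exactly 54 bases long in GENCODE M21. The share was 26.3% in FACIT, 4.23% in basement membrane and 7.30% in other chains, and 0.731% in all coding genes. The longest run of Gly-X-Y triplets, read as GGN at the first of each 3 codons, was 337 to 344 triplets in 9 of the fibrillar genes and 216 and 217 in *Col24a1* and *Col27a1*. Of these 9 long-helix genes, *Col2a1* was not tested and *Col11a1* and *Col11a2* did not pass, while the other 6 rose.

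**Figure D3:**
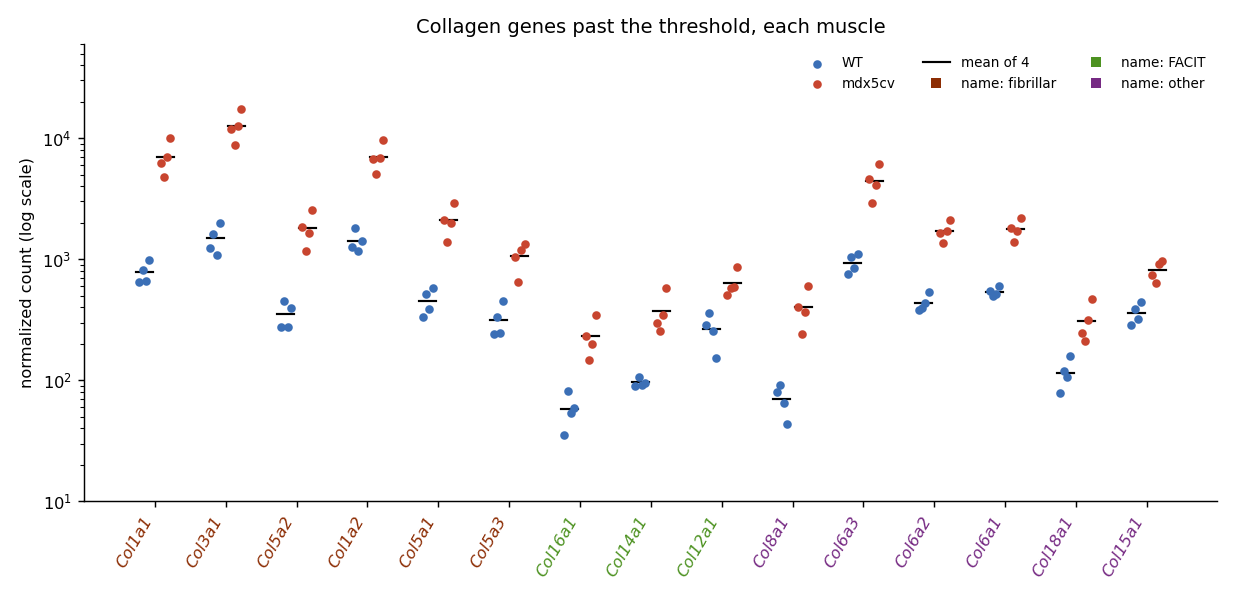
Normalized counts on a log axis in each of 4 WT (blue) and 4 *mdx5cv* (red) muscles for the 15 collagen genes called with a mean of at least 100, replicates 1 to 4 from left to right, with the mean of 4 as a line. Gene names are colored by structural group. In every gene shown the lowest *mdx5cv* muscle lies above the highest WT muscle.

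The 6 type IV chains of the basement membrane moved in 3 different ways, and the 2 genes of each genomic pair moved in the same direction. Every one of the 6 passed the adjusted p and had no overlap between genotypes, but 2 were called higher, 2 were called lower and 2 changed by less than 2-fold. The genes lie in 3 pairs that are read away from each other from a shared start region. The products assemble as trimers of 2 *Col4a1* and 1 *Col4a2* chain in nearly all basement membranes, of the *Col4a3*, *Col4a4* and *Col4a5* chains in a few sites such as the kidney filter, and of *Col4a5* with *Col4a6* chains in others such as smooth muscle.

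*Col4a1* (chr8:11198423-11312826, - strand) had 1208, 1668, 1377 and 2014 normalized counts in WT and 2068, 2216, 2782 and 2612 in *mdx5cv* (log2 fold change 0.64, SE 0.15, adjusted p = 0.00478). *Col4a2* (chr8:11312805-11449287, + strand) had 859.5, 1077, 886 and 1324 in WT and 1398, 1568, 1752 and 1618 in *mdx5cv* (log2 fold change 0.63, SE 0.14, adjusted p = 0.00267). The highest WT muscle of each gene was just under the lowest *mdx5cv* muscle. The annotated genes overlap by 22 bases at their starts on opposite strands, and it is not stated whether the counting used the strand, so reads there cannot be assigned. The windows around the 2 starts overlap and are shown because the pair moved by nearly the same amount. Each line gives 250 bases before and 50 after the RefSeq start (GRCm38.p6), with matches to GGGCGG (GC box) and CCAAT on either strand in capitals.
*Col4a1*, chr8:11312777-11313076, - strand: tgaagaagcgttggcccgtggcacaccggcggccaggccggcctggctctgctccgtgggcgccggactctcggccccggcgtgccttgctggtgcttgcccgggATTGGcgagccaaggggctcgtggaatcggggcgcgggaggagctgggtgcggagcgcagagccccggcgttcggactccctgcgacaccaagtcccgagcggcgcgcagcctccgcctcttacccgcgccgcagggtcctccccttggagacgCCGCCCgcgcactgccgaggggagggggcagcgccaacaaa
*Col4a2*, chr8:11312555-11312854, + strand: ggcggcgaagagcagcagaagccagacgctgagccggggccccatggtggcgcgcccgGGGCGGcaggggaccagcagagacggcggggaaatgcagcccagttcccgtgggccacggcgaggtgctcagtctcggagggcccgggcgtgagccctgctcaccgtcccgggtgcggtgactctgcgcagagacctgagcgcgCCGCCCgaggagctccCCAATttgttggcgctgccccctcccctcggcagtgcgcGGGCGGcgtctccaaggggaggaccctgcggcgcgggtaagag
The ratio of *Col4a2* to *Col4a1* was 0.665 ± 0.0320 in WT muscles and 0.658 ± 0.0411 in *mdx5cv* muscles (SD, n = 4, exact permutation test of the log2 ratio, two-sided, p = 0.83). Summed endothelial markers, from another cell type that makes type IV collagen, were 3011 to 3601 in WT and 1783 to 2251 in *mdx5cv*, with a median log2 fold change of -0.73 over 6 genes. Their part in the values of *Col4a1* and *Col4a2* was not tested.

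*Col4a5* (chrX:141475385-141689234, + strand) had 20.6, 36.2, 17.7 and 31.8 normalized counts in WT and 147, 154, 145 and 207 in *mdx5cv* (log2 fold change 2.62, SE 0.23, adjusted p = 3.87e-06). The *mdx5cv* muscle number 4 stood above the other 3, which were close together, and all 4 were above WT. *Col4a6* (chrX:141165403-141474076, - strand) was low in WT, with 5.73, 6.58, 2.21 and 9.53, and had 19.5, 22.6, 18.9 and 26.4 in *mdx5cv* (log2 fold change 1.81, SE 0.38, adjusted p = 0.00213). The starts of this pair are 1308 bases apart, and the pair is shown because both rose while the other pairs did not pass as higher.
*Col4a5*, chrX:141475169-141475468, + strand: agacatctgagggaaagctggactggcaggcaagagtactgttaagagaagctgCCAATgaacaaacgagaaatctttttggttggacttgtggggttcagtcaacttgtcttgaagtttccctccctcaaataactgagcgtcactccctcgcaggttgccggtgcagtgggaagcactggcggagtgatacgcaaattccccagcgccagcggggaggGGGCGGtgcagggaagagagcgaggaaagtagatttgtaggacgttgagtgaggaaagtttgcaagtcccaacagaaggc
*Col4a6*, chrX:141474027-141474326, - strand: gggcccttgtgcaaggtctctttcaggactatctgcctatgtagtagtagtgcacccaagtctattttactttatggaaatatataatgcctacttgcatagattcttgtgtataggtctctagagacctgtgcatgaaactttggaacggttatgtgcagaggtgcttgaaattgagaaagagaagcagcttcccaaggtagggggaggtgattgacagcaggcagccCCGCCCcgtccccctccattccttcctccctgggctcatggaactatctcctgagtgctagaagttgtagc
Of the 38 RefSeq promoter windows of 35 collagen genes, 23 held a GC box (60.5%), against 35.7% of all 32851 windows. CCAAT was in 13 (34.2% against 37.4%) and the TATA box, TATAAA, in 5 (13.2% against 13.6%).

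*Col4a3* (chr1:82586921-82722059, + strand) fell, with 61.9, 81.2, 56.4 and 59.3 normalized counts in WT and 24.1, 40.6, 33.3 and 11.2 in *mdx5cv* (log2 fold change -1.34, SE 0.32, adjusted p = 0.00474). *Col4a4* (chr1:82448423-82586849, - strand) had 30.9, 82.3, 36.5 and 53.0 in WT and 23.2, 27.4, 21.6 and 16.8 in *mdx5cv* (log2 fold change -1.07, SE 0.29, adjusted p = 0.00971). Only 71 bases lie between the starts of this pair. The WT values of *Col4a4* were scattered, with replicate 2 far above the others, and both genes had under 100 normalized counts in every muscle. Neither gene was called under equal totals, with log2 fold changes of -0.99 (adjusted p = 0.0125) and -0.73 (adjusted p = 0.0555). Neither was called without *mdx5cv* replicate 4 (-0.98 and -0.95), and *Col4a4* was not called without WT replicate 2 (-0.81). Of 5 Schwann cell markers 1 was called lower, with a median log2 fold change of -0.94 and sums of 315 to 658 in WT and 147 to 269 in *mdx5cv*. Their part in the fall of *Col4a3* and *Col4a4* was not tested.

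Of the 9 FACIT chains, 7 were tested, 3 rose and 1 fell. *Col12a1* (chr9:79598991-79718831, - strand), which links fibrils in tendon and in the sheaths of muscle, had 285, 358, 258 and 151 normalized counts in WT and 505, 579, 589 and 865 in *mdx5cv* (log2 fold change 1.30, SE 0.23, adjusted p = 0.000610). *Col14a1* (chr15:55307750-55520803, + strand), a related fibril-surface chain, had 90.5, 107, 91.8 and 95.3 in WT and 300.2, 255, 348 and 583 in *mdx5cv* (log2 fold change 1.87, SE 0.21, adjusted p = 1.92e-05). *Col16a1* (chr4:130047840-130099283, + strand) had 35.5, 82.3, 54.2 and 59.3 in WT and 234, 146, 199.9 and 344 in *mdx5cv* (log2 fold change 1.97, SE 0.27, adjusted p = 9.04e-05). None of these 3 genes overlapped between genotypes. Of 6 tendon and myotendinous junction markers, listed because *Col12a1* is also made there, 0 were called, and their sums overlapped at 808 to 2238 in WT and 1461 to 2185 in *mdx5cv*. The sum of 808 was that of WT replicate 4, which also had the lowest *Col12a1*, and the other WT muscles had 1671 to 2238. The part of these markers in the values of *Col12a1* was not tested. *Col22a1*, the chain of the myotendinous junction, had 202 ± 9.98 normalized counts in WT and 215 ± 46.5 in *mdx5cv* (SD, n = 4, log2 fold change 0.06, adjusted p = 0.761).

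*Col9a1* (chr1:24177610-24252684, + strand), a chain of type IX collagen known from cartilage and the eye, had the largest fall of the 36 genes. It had 45.8, 49.4, 38.7 and 26.5 normalized counts in WT and 6.49, 15.1, 11.7 and 3.20 in *mdx5cv* (log2 fold change -2.16, SE 0.39, adjusted p = 0.000791). It was the collagen gene called lower under each of the alternatives run, equal totals included (-1.84). The partner chains of type IX were near 0. *Col9a2* had 2.19 to 6.63 normalized counts in WT and 0 to 0.943 in *mdx5cv*, and *Col9a3* had 2.21 to 3.44 and 0.799 to 3.77, and neither was tested. Of the cartilage markers, *Cnmd* was at 0 in every muscle, *Acan*, *Matn1* and *Matn3* were too low to test, and *Sox9* rose (log2 fold change 1.77). *Col19a1* (0.37) and *Col20a1* (-0.28, or 0.07 under equal totals) did not pass. Exons of *Col20a1*, *Col3a1* and *Col7a1* overlap another annotated gene on the same strand, which for *Col3a1* and *Col7a1* is a microRNA. Exons of *Col4a1*, *Col4a2*, *Col4a3*, *Col5a1*, *Col6a4*, *Col6a6*, *Col9a3*, *Col10a1*, *Col15a1* and *Col22a1* overlap one on the opposite strand. The strand setting of the counting is not given in the sources used here, so the counts of all of these genes are uncertain to that extent.

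Type VI collagen forms beaded filaments next to the basement membrane of muscle fibers, and loss of any of its 3 main chains causes muscle disease in people. All 3 main chains rose and none overlapped between genotypes. *Col6a1* (chr10:76708792-76726168, - strand) had 544, 497, 512 and 604 normalized counts in WT and 1810.2, 1399, 1709 and 2195 in *mdx5cv* (log2 fold change 1.71, SE 0.13, adjusted p = 1.48e-06). *Col6a2* (chr10:76595762-76623630, - strand) had 379, 395, 436 and 535 in WT and 1644, 1373, 1719 and 2105 in *mdx5cv* (log2 fold change 1.97, SE 0.14, adjusted p = 9.78e-07), and *Col6a3* (chr1:90765923-90843971, - strand) had 752, 1035, 847 and 1095 in WT and 4563, 2923, 4106 and 6173 in *mdx5cv* (log2 fold change 2.22, SE 0.19, adjusted p = 3.97e-06). In each of the 3 the *mdx5cv* muscle number 4 was the highest and number 2 the lowest of its genotype. Of the chains that can take the place of *Col6a3*, *Col6a6* passed the adjusted p but not the fold, with 94.0, 106, 101 and 114 in WT and 135, 131, 158 and 148 in *mdx5cv* (log2 fold change 0.46, SE 0.13, adjusted p = 0.0115). *Col6a5* had 1.15, 1.10, 5.53 and 4.24 in WT and 8.34, 68.9, 19.8 and 20.8 in *mdx5cv* (log2 fold change 2.73, SE 0.59, adjusted p = 0.00273), and its SE was the largest of the 36, with the *mdx5cv* muscle number 2 far above the other 3. *Col6a4* had reads in 2 of the 8 muscles and was not tested.

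The multiplexins *Col15a1* and *Col18a1* tie basement membranes to the matrix beside them. *Col15a1* (chr4:47208161-47313167, + strand) had 289, 390.5, 319.5 and 441 normalized counts in WT and 736, 641, 909 and 969 in *mdx5cv* (log2 fold change 1.17, SE 0.16, adjusted p = 8.88e-05), and *Col18a1* (chr10:77052178-77166548, - strand), whose end releases endostatin, had 79.1, 119.6, 106 and 159 in WT and 245, 213, 318 and 466 in *mdx5cv* (log2 fold change 1.39, SE 0.24, adjusted p = 0.000563). Both had no overlap. Among the short chains that form hexagonal nets, *Col8a1* (chr16:57624258-57754737, - strand) had 80.2, 92.1, 65.2 and 43.4 in WT and 401, 242, 365 and 599 in *mdx5cv* (log2 fold change 2.48, SE 0.26, adjusted p = 1.39e-05). Its partner *Col8a2* had 22.9, 45.0, 17.7 and 11.7 in WT and 22.2, 34.9, 35.1 and 59.9 in *mdx5cv*, which overlapped (log2 fold change 0.70, SE 0.38, adjusted p = 0.153). *Col10a1*, known from growth plate cartilage, had 0 reads in every WT muscle, which allows up to 3 reads per library, and 11, 1, 5 and 10 reads in *mdx5cv*, and was too low to test. Its exons overlap a gene on the other strand.

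Of the 4 membrane-spanning chains, 2 were tested and 1 was called higher. *Col13a1*, found at the neuromuscular junction, had 21.8, 12.1, 14.4 and 45.6 normalized counts in WT and 48.2, 34.9, 30.6 and 70.3 in *mdx5cv*. Its values overlapped between the genotypes, and it was the gene called higher with the smallest log2 fold change (1.06, SE 0.37, adjusted p = 0.0378). It was not called with a pseudocount of 10, without the variance trend, in edgeR (adjusted p = 0.0628), in DESeq2 (log2 fold change 0.97) or when any 1 of 5 of the 8 muscles was left out (WT replicates 1, 2 and 3 and *mdx5cv* replicates 1 and 4), with adjusted p from 0.00374 to 0.117 over its alternatives. Neuromuscular junction markers had sums of 627 to 886 in WT and 1296 to 1648 in *mdx5cv*, with 1 of 4, *Ache*, called higher. *Col23a1* passed the adjusted p alone, with 28.3 ± 2.35 normalized counts in WT and 47.2 ± 4.05 in *mdx5cv* (SD, n = 4, log2 fold change 0.71, SE 0.18, adjusted p = 0.00620). *Col7a1*, the anchoring fibril chain of skin (-0.37), and *Col28a1* (-0.33) did not pass. *Col17a1*, *Col25a1* and *Col26a1* were not tested, and *Col26a1* had 0 to 4.42 normalized counts in WT and 5.66 to 17.6 in *mdx5cv*. Keratinocyte markers, checked because *Col7a1* and *Col17a1* are skin genes, summed to 4.42 to 8.02 in WT and 6.30 to 12.0 in *mdx5cv*.

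The make-up of the collagen counts shifted toward fibrillar chains. They were 42.6 to 46.7% of the normalized collagen counts in WT and 63.9 to 69.4% in *mdx5cv*, with means of 44.7% ± 1.72 and 66.8% ± 2.28 (SD, n = 4). Basement membrane chains made 23.8% ± 1.39 in WT and 9.16% ± 1.99 in *mdx5cv*, although *Col4a1* and *Col4a2*, which held most of these counts, were themselves higher. FACIT chains were 6.57% ± 1.39 and 3.25% ± 0.408 of the counts. The other chains were 24.9% ± 1.67 and 20.8% ± 0.768, and within them *Col6a1* to *Col6a3* were 16.7% ± 1.09 and 16.5% ± 0.805. A share does not depend on the size factors. Lengths in kb of exon merge the exons of all annotated transcripts of a gene. Per kb of exon, the fibrillar share was 39.7% ± 1.57 in WT and 63.3% ± 2.74 in *mdx5cv*. On the scale of mean normalized counts per kb of exon, the 3 highest genes in WT were *Col4a1* (210), *Col4a2* (157) and *Col3a1* (151), and in *mdx5cv* they were *Col3a1* (1290), *Col1a1* (1066) and *Col1a2* (567). In *mdx5cv*, *Col4a1* ranked 6 at 324 and *Col4a2* ranked 8 at 239. The merged length exceeds the coding length unevenly, with 12426 against 4119 bases in *Col1a2* and 7464 against 5010 in *Col4a1*. The order of these genes therefore depends on the length used, and no other length was tried.

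**Figure D4:**
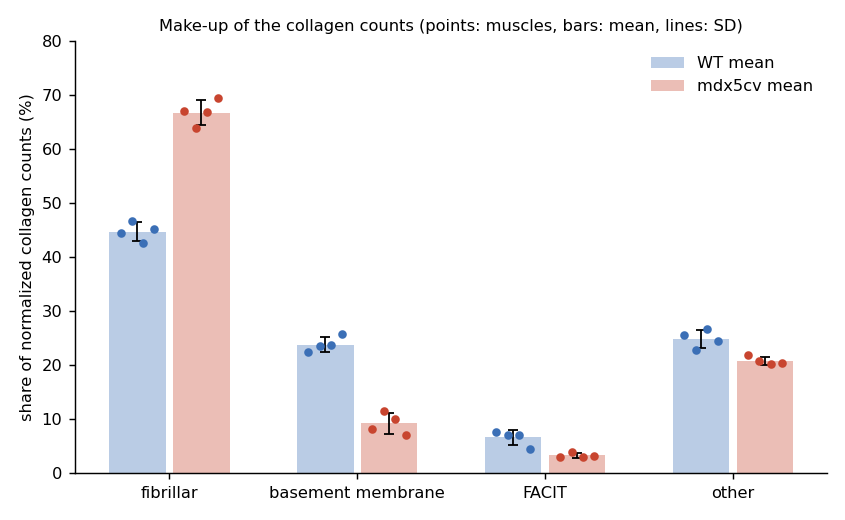
Share of the normalized collagen counts (%) in each structural group for 4 WT and 4 *mdx5cv* muscles, with points for muscles, bars for means and lines for the SD. The fibrillar share rises from a mean of 44.7% in WT to 66.8% in *mdx5cv*, and the basement membrane share falls from 23.8% to 9.16%.

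The ratio of 2 chains in the same muscle cancels the size factor, and 13 ratios between chains of the same or of different collagen types were compared. With 4 muscles a group, the smallest p the exact permutation test can give is 0.0286, and 8 of the 13 ratios reached it (Benjamini-Hochberg adjusted over the 13, 0.0464), all without overlap. Ratios are of normalized counts with no correction for length, so only their change is read. *Col1a2* to *Col1a1*, chains that meet as 1 to 2 in type I collagen, was 1.96, 2.23, 1.77 and 1.42 in WT and 1.09, 1.05, 0.968 and 0.963 in *mdx5cv*. *Col1a1* thus gained more than its partner did. *Col3a1* to *Col1a1* was 1.89 ± 0.171 in WT muscles and 1.82 ± 0.0807 in *mdx5cv* muscles (SD, n = 4, exact p = 0.6), so the difference was within the spread. *Col5a1* to *Col1a1* was 0.581 ± 0.0496 and 0.302 ± 0.0272, with no overlap.

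Within type V collagen, *Col5a2* to *Col5a1* was 0.773 ± 0.0950 in WT muscles and 0.852 ± 0.0248 in *mdx5cv* muscles (SD, n = 4, exact p = 0.257). *Col5a3* to *Col5a1* was lower in *mdx5cv*, at 0.505 ± 0.0588 against 0.693 ± 0.0642, so that *Col5a3* rose less than *Col5a1*. Within type VI, *Col6a2* to *Col6a1* was 0.807 ± 0.0826 in WT and 0.964 ± 0.0415 in *mdx5cv*, and *Col6a3* to *Col6a1* was 1.73 ± 0.294 and 2.46 ± 0.299. Both chains were thus higher relative to *Col6a1* in *mdx5cv*. For *Col6a3* to *Col6a1* the genotypes nearly touched, at 2.084 in WT replicate 2 and 2.089 in *mdx5cv* replicate 2. *Col6a6* to *Col6a3* was 0.113 ± 0.0109 and 0.0342 ± 0.00926, so *Col6a6* was lower relative to *Col6a3* although its own count was higher. *Col4a5* to *Col4a1* was 0.0169 ± 0.00368 and 0.0680 ± 0.0114, and *Col8a2* to *Col8a1* was 0.328 ± 0.107 and 0.0990 ± 0.0362. *Col11a1* to *Col5a1* (exact p = 0.0571) and *Col4a4* to *Col4a3* (exact p = 0.486) overlapped between genotypes.

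**Figure D5:**
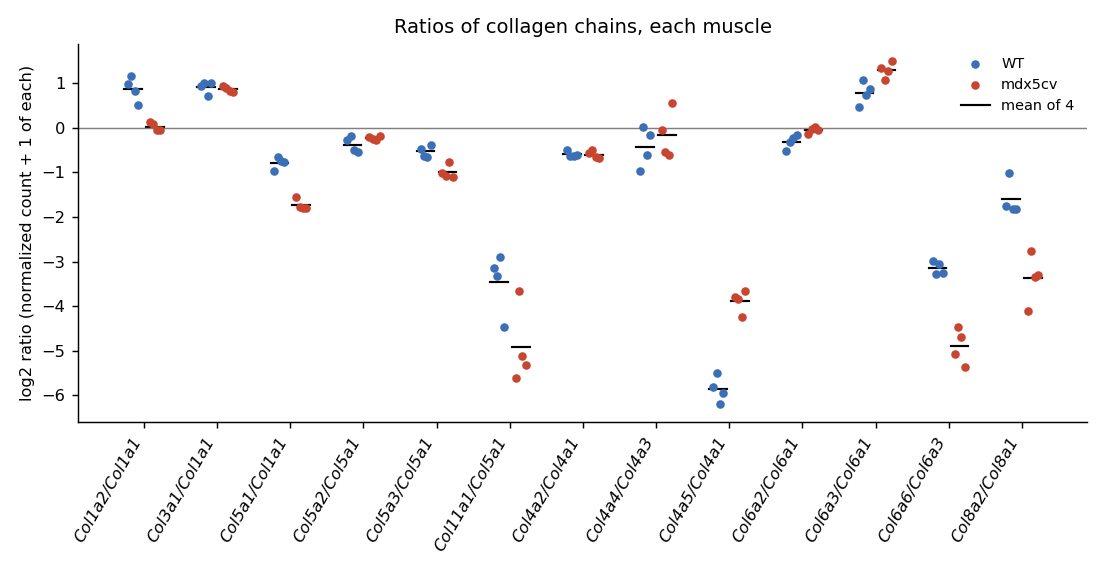
Log2 ratio of the normalized counts (each + 1) of 2 collagen chains in each of 4 WT (blue) and 4 *mdx5cv* (red) muscles, replicates 1 to 4 from left to right, for 13 ratios, with the mean of 4 as a line. Blue and red points do not overlap in 8 ratios, and *Col4a2* to *Col4a1* and *Col3a1* to *Col1a1* are among the 5 that overlap.

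Neighboring collagen genes outside the type IV pairs did not always move alike. *Col3a1* and *Col5a2*, tail to tail with 24614 bases between them, both rose, as did *Col6a1* and *Col6a2*, which are 85161 bases apart and read in the same direction. *Col6a5* and *Col6a6* are 27917 bases apart, with log2 fold changes of 2.73 and 0.46. *Col9a1* and *Col19a1*, 9205 bases apart and tail to tail, had -2.16 and 0.37.

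Collagen chains are hydroxylated and folded in the endoplasmic reticulum, trimmed of their propeptides outside the cell, crosslinked, bound by receptors and finally degraded. Of 47 genes listed for these steps, 44 were tested, 21 were called higher and 1 lower. Of all genes tested, 10.3% were called higher and 3.27% lower. In hydroxylation and folding, 4 of 17 were called higher: the collagen chaperone *Serpinh1* (log2 fold change 1.09, adjusted p = 0.000105), the crosslink-site cofactor *Fkbp10* (log2 fold change 1.72, adjusted p = 0.000126), *Crtap* (log2 fold change 1.41, adjusted p = 6.01e-05) and the prolyl hydroxylase subunit *P4ha3* (log2 fold change 2.43, adjusted p = 0.00177). The common subunits *P4ha1* and *P4ha2* had log2 fold changes of 0.06 and -0.17 and did not pass. In propeptide cleavage, 4 of 7 tested were called higher, with *Adamts14* (log2 fold change 3.21, adjusted p = 8.34e-06) and the C-proteinase *Bmp1* (log2 fold change 1.03, adjusted p = 6.57e-05). The enhancer of that cleavage *Pcolce* rose (log2 fold change 1.09, adjusted p = 0.000521) and its relative *Pcolce2* fell (log2 fold change -1.0, adjusted p = 0.00119).

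Among the 5 crosslinking enzymes 4 were called higher, with the lysyl oxidases *Lox* (log2 fold change 1.65, adjusted p = 7.01e-05) and *Loxl1* (log2 fold change 2.05, adjusted p = 1.69e-05). In collagen degradation 4 of 5 tested were called higher. The membrane-bound collagenase *Mmp14* rose (log2 fold change 2.28, adjusted p = 4.61e-06), as did *Ctsk* (log2 fold change 2.73, adjusted p = 1.47e-05), a lysosomal protease that cleaves the triple helix. Of 10 receptors tested 5 were called higher, with the uptake receptor *Mrc2* (log2 fold change 1.42, adjusted p = 4.58e-05) and the leukocyte receptor *Lair1* (log2 fold change 3.6, adjusted p = 9.27e-06). The integrin chain *Itga1* passed the adjusted p as lower, under the fold (log2 fold change -0.66, adjusted p = 0.000317).

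Marker genes of the cells in a muscle moved unevenly. Of 7 fibroblast and fibro-adipogenic progenitor markers, 2 were called higher, and the sums overlapped at 2575 to 5921 in WT and 3390 to 4511 in *mdx5cv*. The called genes were *Lum* (log2 fold change 1.19, adjusted p = 0.00102) and *Pdgfrl* (log2 fold change 1.51, adjusted p = 0.000761), and *Pdgfra* (log2 fold change 0.63, adjusted p = 0.000620) and *Dpt* (log2 fold change 0.46, adjusted p = 0.0342) passed the adjusted p under the minimum fold. The proteoglycan gene *Dcn*, with the highest normalized counts of the 7, not corrected for length, did not pass (log2 fold change -0.24, adjusted p = 0.425). All 6 macrophage and all 6 regenerating fiber markers were called higher, with sums of 364 to 593 and 118 to 143 in WT and the *mdx5cv* sums given above. Among them *Itgam*, *Mymk*, *Mymx* and *Chrng* had WT means under 10 (3.88, 0.265, 0 and 0.265). These genes passed the filter through their *mdx5cv* values. Of 5 muscle fiber markers 0 were called, and *Ckm* (log2 fold change -0.75, adjusted p = 0.0227) and *Tnnt3* (log2 fold change -0.63, adjusted p = 0.0277) passed the adjusted p as lower, under the minimum fold. The fast fiber myosin *Myh4* had 447053 ± 86136 normalized counts in WT and 425780 ± 85226 in *mdx5cv* (SD, n = 4). Of 5 pericyte and smooth muscle markers 0 were called, while their sums did not overlap, at 6328 to 7619 in WT and 4454 to 5179 in *mdx5cv*. Under the minimum fold, *Rgs5* (log2 fold change -0.87, adjusted p = 0.000206) and *Myh11* (log2 fold change -0.87, adjusted p = 0.000379) passed the adjusted p as lower, and *Acta2* (log2 fold change 0.78, adjusted p = 0.0108) and *Pdgfrb* (log2 fold change 0.32, adjusted p = 0.0395) as higher. Of 4 adipocyte markers 3 were called lower, with sums of 58.4 to 464 in WT and 14.8 to 51.9 in *mdx5cv*. The part of any of these cell types in the collagen values was not tested.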

How the data were processed

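RNA of 4 WT and 4 *mdx5cv* TA muscles was sequenced from stranded total RNA libraries depleted of ribosomal RNA. The submitters' processing notes name FastQC, Trim Galore 0.6.4, STAR 2.6.0c, SAMtools 1.9, featureCounts, MultiQC 1.6, DESeq2 1.26.0, R 3.6.2 and mm10. The annotation and the strand setting of the counting are not given in the sources used here. The authors deposited 1 signal per gene and sample, a read count divided by a size factor. Whole reads were recovered for 100% of the values (tolerance 0.01 reads), and the size factors were those of DESeq2's median of ratios.

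Muscles were grouped by their labels. Genes with a mean of at least 10 normalized counts (13677) entered a two-sided limma fit (version 3.58.1, R 4.3.3) of log2(normalized count + 1) with a variance trend, no covariate and Benjamini-Hochberg adjustment over all of them. A gene was called where its adjusted p was below 0.05 and it changed by at least 1 on the log2 scale, a scale that understates the change of low genes. The recovered reads were also fitted with edgeR 4.0.16 (1907 genes called) and with DESeq2 1.42.0 (1906). Other alternatives used pseudocounts of 0.1 and 10, no filter, TMM factors, equal totals, no variance trend, a replicate block and each muscle left out. Counts without a minimum fold change were added after the data were seen. Chain ratios were compared with exact permutation tests, two-sided, over the 8 muscles. The scripts were tested on simulated data.

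The collagen genes, their structural groups, the ratios and the pathway and marker lists were chosen with earlier results of these data known. Values in every muscle were given for called genes with a mean of at least 100, genes called lower, the 3 largest and 3 smallest fold changes, and both chains of a ratio without overlap. *Col4a6*, *Col8a2* and *Col13a1*, where outside this rule, were added after their values were seen. Genes outside the collagens come from the lists and *Dmd*. Gene models, UTRs and exons are from GENCODE M21, which held all 44 genes. Promoters and microRNAs are from RefSeq GRCm38.p6, which had promoter windows for 35 of the 44 genes. Reads of replicates differed by more than sampling noise (chi-square of 8.59 to 38.4 per degree of freedom), so each library counted as 1 sample. The remaining steps used Python 3.11.15 (pandas 2.3.3, scipy 1.17.1, matplotlib 3.10.9).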

Additional observations from a re-analysis of the deposited data

Results flagged for a closer look

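By Dixon's test on the log2 scale, 1 value of *Col4a5* stood apart within its genotype. In *mdx5cv* replicate 4 it had 207 normalized counts, and the other *mdx5cv* muscles had 145 to 154, so that the gap to the nearest was 0.835 of the whole range of the 4 on the log2 scale. Each of the 36 genes was looked at in both genotypes by Dixon's test, which makes 72 sets of 4 muscles, and chance alone gives about 3.6 such values. *Col4a5* was called higher without that muscle too.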

How the results depend on the processing

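Correlations of same-numbered deviations were 0.050, 0.031, 0.072 and 0.146, and those of other pairs ran from -0.148 to 0.074. Not every muscle correlated best with its own number, and whether replicate numbers pair the muscles was not tested. With the replicate number as a block, 1882 genes were called in all (1861 without it), and 20 collagen genes were higher and 3 lower, as without it. Leaving out 1 muscle at a time gave 1595 to 1991 genes in all, 19 to 20 collagen genes higher and 1 to 3 lower, and 0 to 2 basement membrane genes lower. The single gene lower was found without *mdx5cv* replicate 4, which left 0 basement membrane genes lower, and leaving out WT replicate 2 left 1 of them. A pseudocount of 10 left 1 basement membrane gene lower. Equal totals left 1 collagen gene and 0 basement membrane genes lower. Without a filter on low values 2844 of 28501 genes were called. Of the collagen genes 22 were then higher and 4 lower, with 2 FACIT genes lower. The calls added there were of collagen genes that the filter had kept from being tested. Without a minimum fold change 5597 of 13677 genes were called.

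Signs turned in genes and ratios that had not passed. Under equal totals *Col11a2* had 0.052 and *Col20a1* 0.071. With 1 muscle left out, *Col22a1* had -0.043 (without *mdx5cv* replicate 2) to 0.21, and the log2 ratio of *Col4a2* to *Col4a1* differed by -0.050 to 0.018 and was above 0 without WT replicate 1, *mdx5cv* replicate 3 or *mdx5cv* replicate 4. The causes were not tested. Under equal totals *Col11a1* (1.07), *Col23a1* (1.06), *Col24a1* (1.18), *Col4a1* (1.0) and *Col8a2* (1.05) were also called higher. For all other collagen genes among the 36 tested, the call, which takes the adjusted p and the fold together, was the same in the alternatives. Exceptions were *Col13a1*, *Col4a3* and *Col4a4*, described above, and *Col8a2* without WT replicate 2 (1.05). Ratios were not tested again with 1 muscle left out, and only their differences between genotypes were followed there. The sign of that difference changed for *Col4a2* to *Col4a1* alone. On the adjusted p alone, *Col11a1* also passed with the replicate block (0.0348), in DESeq2 (0.0400) and without *mdx5cv* replicate 1 (0.0243), and *Col19a1* (0.0289) and *Col22a1* (0.0235) passed under equal totals. Counts of under 100 limit *Col4a3*, *Col4a4*, *Col4a6*, *Col6a5* and *Col9a1*.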
